A study of Mus musculus with 8 samples.

Results

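The samples described here are the white part of the gastrocnemius, a calf muscle built mainly of fast fibres, from 4 wild type mice. They were chosen as all samples labelled Wild Type PUS1, 4 of the 8 samples of the series. The other 4, labelled Homozygous Mutant PUS1, were not contrasted with them. They entered the normalization, the estimate of the dye effect and the shared estimate of spread in 1 test. In places the order of the mutants among themselves, or their own difference between the sexes, is given beside the wild type result. All mice were 14 to 16 weeks old and C57BL/6J after 5 generations of backcrossing, and the labels record no treatment. Wild type animals 1 and 2 were male and animals 3 and 4 female. From each frozen muscle 200 ng of total RNA was labelled, with Cy3 for animals 1 and 3 and with Cy5 for animals 2 and 4. Each of 4 arrays on 1 slide held 1 wild type animal and the mutant of the same number and sex, so an array held 1 sex and each sex held both dyes. The labels name individual animals, so the spread below is between mice and includes dissection, labelling and hybridisation.

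Fast fibres contract with type IIb, IIx and IIa myosin heavy chains and fast troponins, and renew ATP largely from glycolysis and phosphocreatine. Slow fibres use their own sarcomere proteins: the type I myosin heavy chain, slow myosin light chains and slow troponins. The superficial, white part of mouse gastrocnemius is known as almost purely fast, and the deeper parts hold more oxidative and slow fibres. In bulk RNA, more slow fibres in a piece of muscle and more slow transcript per fibre cannot be told apart.

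Values are normalized log2 intensity with the probe-specific dye effect removed, so that 1 unit is a 2-fold change of signal. Of 55681 probes, 21791 were well above background in at least 3 of the 4 animals, and 14485 of these carried the symbol of 1 of 11446 genes. The share of spots well above background ran from 38.5% in animal 1 to 46.5% in animal 2. Probes just inside the rule (3 of 4 animals, 2034 probes) had a median SD of 0.193, and probes just outside it (2 of 4 animals, 2163 probes) a median SD of 0.174. The number of arrays limits the precision.

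The 5 upstream sequences shown here belong to slow fibre genes that differed together between the 4 animals, with values given further on. Each is the 250 bases before a RefSeq start site (GRCm38.p6), 5′ to 3′ on the gene's strand. Myh7 and Myl2, and Tnni1 among the genes counted below, had 2 windows listed, of which only the first was searched. Myh7 encodes the type I myosin heavy chain and lies at chr14:54994627-54994876 (minus strand), and Tnnc1 encodes the slow and cardiac troponin C and lies at chr14:31208062-31208311 (plus strand). Myl3 and Myl2 encode slow myosin light chains, and their windows are chr9:110763428-110763677 (plus strand) and chr5:122092474-122092723 (plus strand). Tnnt1 encodes slow troponin T and has its window at chr7:4515976-4516225 (minus strand). Capitals mark CATTCC on either strand, the MCAT element known from muscle promoters.
Myh7: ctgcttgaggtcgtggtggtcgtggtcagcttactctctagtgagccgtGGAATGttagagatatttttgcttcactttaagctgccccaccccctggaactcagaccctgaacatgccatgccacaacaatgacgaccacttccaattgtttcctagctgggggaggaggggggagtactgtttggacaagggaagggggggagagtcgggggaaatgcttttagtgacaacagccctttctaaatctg
Tnnc1: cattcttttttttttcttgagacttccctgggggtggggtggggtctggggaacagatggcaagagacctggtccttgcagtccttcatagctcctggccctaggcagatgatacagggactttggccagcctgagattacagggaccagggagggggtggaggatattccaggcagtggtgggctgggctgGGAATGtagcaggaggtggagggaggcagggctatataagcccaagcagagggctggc
Myl3: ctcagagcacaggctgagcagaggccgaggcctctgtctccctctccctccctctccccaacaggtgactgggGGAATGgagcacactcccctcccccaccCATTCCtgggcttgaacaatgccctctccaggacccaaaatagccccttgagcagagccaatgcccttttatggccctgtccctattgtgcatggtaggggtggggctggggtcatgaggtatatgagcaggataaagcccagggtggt
Myl2: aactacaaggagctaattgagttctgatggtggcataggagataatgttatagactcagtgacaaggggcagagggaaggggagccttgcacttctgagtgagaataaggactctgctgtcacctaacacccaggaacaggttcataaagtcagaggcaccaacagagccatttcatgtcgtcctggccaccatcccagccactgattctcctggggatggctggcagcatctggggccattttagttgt
Tnnt1: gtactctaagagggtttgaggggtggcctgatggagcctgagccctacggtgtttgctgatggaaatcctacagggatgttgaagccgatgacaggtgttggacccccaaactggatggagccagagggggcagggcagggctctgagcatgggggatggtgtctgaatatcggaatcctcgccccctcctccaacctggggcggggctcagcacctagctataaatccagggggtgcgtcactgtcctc
The element was found in 3 of the 7 slow genes that had a window and an SD over 1 (Myh7, Tnnc1 and Myl3), and in 12.6% of all 27025 windows of the same length. The E-box CANNTG, searched on both strands and free to overlap it, was in 7 of 7 of these windows and in 66.0% of all windows. The other elements searched were the MEF2 element, the TATA element and a steroid receptor half-site. The MEF2 element was in 0 of 7 of these windows and in 3.23% of all windows. The TATA element was in 1 of 7 (13% of all windows) and the half-site in 1 of 7 (16.2%). A match is a description of letters in these windows.

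Fast fibre genes were among the probes with the brightest mean signal. Among the 25 brightest named genes, 9 were in a list of 27 fast and glycolytic fibre genes, all 27 of which passed the rule. They included the fast troponins Tnni2 (18.54 ± 0.05, SD, n = 4), Tnnt3 (18.38 ± 0.32) and Tnnc2 (18.15 ± 0.11), and the calcium buffer Pvalb (18.34 ± 0.23). Brightness also depends on how well a probe binds, so the order of probes is not an order of transcript numbers. Of the 25 genes, 17 had a saturated spot in at least 1 animal and 9 in both animals labelled with Cy5, so that those levels are lower limits there and the SDs of these genes rest partly on capped signals.

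Myh4, the type IIb myosin heavy chain that defines the fastest fibres, measured 18.94, 18.31, 17.79 and 18.36 in animals 1 to 4. Female animal 3 was lowest, and 1 of the Cy5 values was saturated and so a lower limit. Ckm, the muscle creatine kinase, measured 17.89, 18.14, 17.52 and 17.79, with both males above both females by less than 1 unit. Myh1, the type IIx heavy chain, measured 15.12, 15.42, 14.92 and 15.04, all within 1 unit. Myh2, the type IIa heavy chain, measured 14.85, 15.34, 13.91 and 14.45 and had the largest SD of the fast list (0.61). Male values lay above female values for Myh1 and Myh2, without passing the test of sex given below (adjusted p = 0.982 and 0.929 in limma). The fast markers Myh4, Myh1, Myh2, Ckm and Pvalb were thus measured in every animal.

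Other bright probes belonged to Aldoa (18.40 ± 0.13) and Gapdh (17.90 ± 0.11), enzymes of glycolysis, and to Acta1 (18.08 ± 0.10), the skeletal muscle actin. Tpm1, a tropomyosin, had 18.43 ± 0.15 and Tcap, the Z-disc cap of titin, 18.11 ± 0.25. Slc25a4, the ADP and ATP carrier of mitochondria, had 18.20 ± 0.07 and Eno3, the muscle enolase, 17.78 ± 0.25. Tpt1, a translationally controlled protein, had 17.91 ± 0.12. Gm12070 (18.02 ± 0.12) and Gm5523 (17.90 ± 0.05), both listed as transcribed pseudogenes, were also among the 25, and signal of a near-identical gene copy cannot be told apart from theirs. The last of the 25 genes had a mean of 17.78 and the next gene a mean of 17.77.

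Several of the 25 brightest probes, among them those of Glrx2, Med16, Kctd14, Elk1, Slc10a1, Ttc38 and Zfp628, carried symbols whose other probes were dim. Glrx2, a glutaredoxin of mitochondria, had 1 probe at 19.00, 18.18, 17.49 and 18.49 in animals 1 to 4, with both Cy5 values saturated, and further probes with means of 11.71 and 7.16. Med16, a Mediator subunit, had a bright probe with a mean of 18.16 and a further probe of 10.71, and Zfp628, a zinc finger gene, had 17.96 against 8.98. Myh8, the perinatal myosin heavy chain, had 18.26 on 1 probe and 14.04 on the other. These bright probes are therefore described only by probe: whether they measure the gene that they are named for was not tested.

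The spread between animals was small for most genes. The median SD was 0.158 over all 21791 probes, 77.2% had an SD under 0.25, and the 95th and 99th percentiles were 0.517 and 0.874. As a measure of spot-to-spot noise within an array, 225 tested probes were spotted 10 times on each array. Their spots on 1 array had a median SD of 0.159 (95th percentile 0.251), and the same probes, with their spots averaged, had a median SD of 0.115 between animals. Cytosolic ribosomal protein genes had a median SD of 0.093 (39 genes), respiratory chain genes 0.112 (30 genes) and tricarboxylic acid cycle and fatty acid oxidation genes 0.134 (27 genes). Against these, all named genes had a median SD of 0.152. The 5 genes with the narrowest spread among those above the median intensity, which were also the narrowest of all named genes, were Mfn1, which encodes a mitofusin, Rbm8a, a part of the exon junction complex, Polr2c, an RNA polymerase II subunit, Rpl3l, a muscle form of a ribosomal protein, and Podxl2. Their SDs were 0.00745 to 0.0104, the lowest picked from 11446 genes with 4 values each. The further probe of Mfn1 had an SD of 0.0577, and that of Polr2c 0.0112.

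Pairs of animals differed by unequal amounts. The SD over probes of the difference between 2 animals was 0.295 for the males (1 and 2) and 0.284 for the females (3 and 4). It was 0.308 for animals 2 and 3, 0.390 for animals 1 and 3, 0.402 for animals 2 and 4, and 0.499 for animals 1 and 4. Animals 1 and 4 differed by more than 1 unit at 5.46% of probes, against 1.04% for animals 1 and 2.

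An SD over 1 was found for 105 probes (0.482% of those tested) and for 43 named genes (0.376%). The count of probes depends on the processing and on single animals: it was 63 with the dye effect taken from the wild type animals alone and 554 with the scanner's processed signals, and 249 without animal 2 and 235 without animal 3. Animals left out of the SD stayed in the dye effect. Of the 105 probes, 37 were higher in both males (35.2%, against 30.4% of all tested probes) and 61 in both females (58.1%, against 21.2%). Of the 43 genes, 20 were higher in both males, 20 higher in both females, and 3 had overlapping sexes. The slow list held 8 of them. Since these genes were picked by their SD, their spread is a description without a test.

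**Figure D1:**
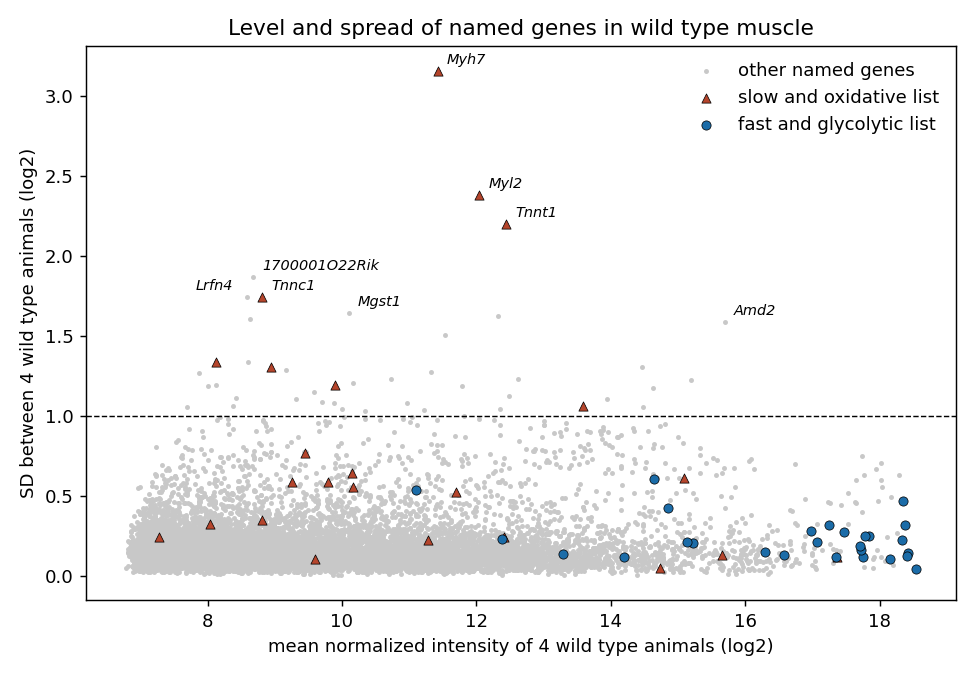
Each point is 1 named gene, placed by its mean normalized log2 intensity over the 4 wild type animals (x) and its SD between them (y), with genes of the slow and oxidative list as triangles and of the fast and glycolytic list as circles. The dashed line is the SD of 1: 8 slow genes lie above it, led by Myh7 at 3.15, and no gene of the fast list does.

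The 3 genes with the largest SD, Myh7, Myl2 and Tnnt1, were slow fibre genes. In a list of 25 slow and oxidative genes 24 passed the rule, and 8 of the 24 (33.3%) had an SD over 1, against 0.376% of all named genes. The median SD of the list was 0.589 against 0.152. Pln, phospholamban, was not well above background in enough animals.

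Myh7 measured 10.72, 7.98, 11.39 and 15.61 in animals 1 to 4, so the highest animal had 198-fold the signal of the lowest (SD 3.15). Female animal 4 was far above the other three, and male animal 2 was lowest. Myl2, the slow regulatory light chain, measured 11.92, 9.31, 11.82 and 15.12 and spanned 56.2-fold. Tnnt1 measured 11.94, 10.12, 12.29 and 15.41, a 39.2-fold range. A second probe of Tnnt1 measured 8.21, 6.81, 8.74 and 11.42, with the same animals highest and lowest. Tnnc1 measured 8.27, 7.06, 8.73 and 11.21. In each of these genes animals 1 and 3, which differ in sex, lay between the other two after the dye correction.

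The remaining genes with an SD over 1 followed the same animals. Tnni1, slow troponin I, measured 8.62, 7.71, 8.68 and 10.79. Myh7b, a slow-type heavy chain gene, measured 7.69, 6.94, 7.84 and 10.05. Atp2a2, the calcium pump of slow fibres and heart, measured 9.74, 8.81, 9.46 and 11.59. Myl3, the slow essential light chain, measured 13.18, 13.00, 12.98 and 15.17. Animal 4 was highest in 8 of 8 of these genes, against 19.1% of all named genes, and animal 2 was lowest in 7 of 8, against 17.5%.

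Not every slow or oxidative gene did this. Of the 16 measured list members with an SD of 1 or less, Mb, myoglobin, measured 15.59, 15.61, 14.39 and 14.75, with the males above the females. Fabp3, the muscle fatty acid binding protein, had an SD of 0.05, Ckmt2, the mitochondrial creatine kinase, 0.13, and Cox6a2, a muscle subunit of cytochrome c oxidase, 0.12. Outside the list, Actc1, the cardiac actin, measured 15.44, 13.44, 16.30 and 15.58, with animal 2 alone low. Without animal 4, 3 of the 24 slow genes kept an SD over 1 (Myh7 1.80, Myl2 1.48 and Tnnt1 1.17), and without any other animal 8 did. The dye effect was still taken from all 8 channels there, so these SDs are not free of the animal left out. In the mutants on the same arrays, mutant 4 was highest in 0 of the 8 wide genes (19.3% of all named genes).

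**Figure D2:**
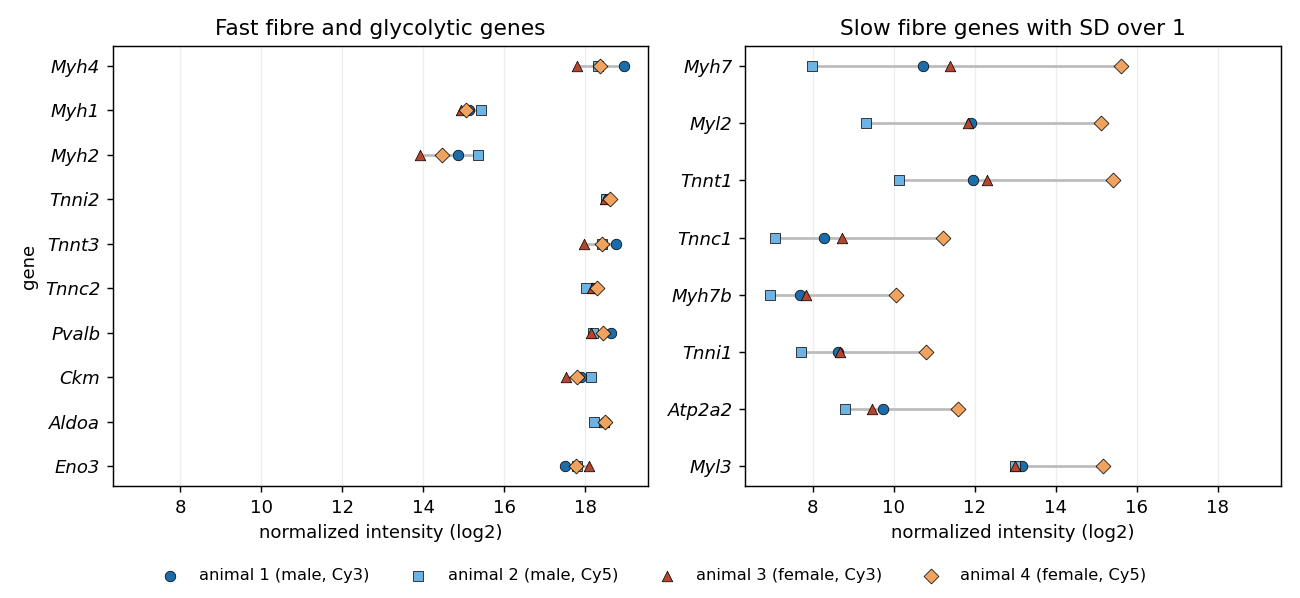
Normalized log2 intensity (x) of 10 fast fibre and glycolytic genes (left) and of the 8 slow fibre genes with an SD over 1 (right) in each of the 4 wild type animals. The grey line spans the 4 values: fast genes stay within 1.5 units, and in the slow genes animal 4 is highest throughout.

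The labels were checked before the sexes were compared. Ddx3y, a Y-linked helicase gene, measured 10.63, 10.53, 6.20 and 6.21 and was not well above background in either female, so that it was at least 17.7-fold higher in males. Eif2s3y, a Y-linked initiation factor gene, was at least 33.1-fold higher in males. Xist, the RNA that silences an X chromosome, was at least 2.75-fold higher in females on 1 probe and at least 1.28-fold on the other. These levels match the labelled sex of all 4 animals. The rule of 3 animals leaves out probes well above background in 1 sex alone. Of 2163 probes well above background in exactly 2 of the 4 animals, 315 were so in both males and neither female, and 139 the other way. The remaining probes paired a male with a female, so these counts do not by themselves show genes found in 1 sex.

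The difference was tested with limma on all 8 channels, with genotype by sex groups and dye as terms. Animals of 1 array were linked by an intraspot correlation of 0.780. At an adjusted p under 0.05, 11 of 21791 probes differed between wild type females and males, all 11 higher in males (0.0505% of those tested) and 0 higher in females. At an unadjusted p under 0.05, 1244 probes (5.71%) did, 817 higher in males. In the mutants, which share arrays with them, 6 of the 11 were called as well. All 11 had the same sign there, as did 94.5% of the 1244 probes, and the shared arrays mean that this is no independent support. Leaving out any 1 array leaves 1 wild type animal in a sex and little to estimate the spread from. How far the 11 calls rest on single animals therefore cannot be read from a count of calls in such fits.

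The 11 probes named 5 genes and 4 unnamed sequences. Phyhd1, a dioxygenase gene, measured 11.79, 11.79, 9.65 and 9.67 and was 4.38-fold higher in males (log2 difference of females minus males −2.13, SE 0.148, limma adjusted p = 0.0373). Mgst1, a microsomal glutathione transferase, measured 11.35, 11.68, 8.59 and 8.78 and was 7.11-fold higher in males (limma adjusted p = 0.0409). Its other probe measured 10.71, 10.94, 8.18 and 8.34 and was called as well. Pthlh, which encodes a parathyroid hormone related peptide, measured 8.84, 9.08, 6.90 and 6.65 and was 4.54-fold higher in males, with 1 of the females not well above background. The gene 1700001O22Rik measured 10.56, 10.01, 7.13 and 7.01 and was 9.28-fold higher in males. For both, the limma adjusted p was 0.0409. Each of these 4 genes lost the call with median centring and with the scanner's processed signals (limma adjusted p between 0.0566 and 0.333). They also lost it with the authors' deposited table (limma adjusted p between 0.0508 and 0.343). Fits without animal 3 or animal 4 left 1 wild type female, so they cannot show whether the calls rest on 1 animal. The log2 differences there were between −3.31 and −2.04. The differences themselves were not smaller with the processed signals, at −4.58 for 1700001O22Rik and −3.76 for Pthlh on the log2 scale.

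Amd2, an S-adenosylmethionine decarboxylase gene of polyamine synthesis, had 3 probes, and all 3 were higher in both males. Its brightest probe measured 16.91, 17.22, 14.45 and 14.22 and missed the threshold (limma adjusted p = 0.181). The other probes measured 14.15, 14.00, 10.84 and 10.75 (adjusted p = 0.0132) and 13.59, 13.47, 9.95 and 9.90 (adjusted p = 0.0261), or 9.74-fold and 12.2-fold higher in males. No tested probe was named for its near-identical copy Amd1, so the signals of the copies cannot be told apart. The next genes, Smox and Odc1, were chosen after their values were seen, and neither was called. Smox, spermine oxidase, measured 15.85, 15.42, 13.77 and 13.49 (limma adjusted p = 0.314). Odc1, ornithine decarboxylase, measured 13.86, 12.94, 11.60 and 11.54, with the males apart from each other by nearly 1 unit and the females alike.

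Among the wide genes 20 of 43 were higher in both males, against 34.1% of all named genes, and 20 in both females, against 18.8%. Of the 43, 10 had animal 4 highest and animal 1 lowest, a pattern described below in which array and sex cannot be told apart. Tmem37, which encodes a calcium channel subunit, measured 12.91, 12.75, 10.33 and 10.12 and Cbr2, a carbonyl reductase, 13.60, 13.75, 11.62 and 11.48. Itpr1, an intracellular calcium release channel, measured 12.21, 12.63, 10.11 and 10.38. Slc2a3, a glucose transporter, measured 9.06, 9.25, 7.08 and 7.10, and Fos, an immediate early transcription factor, 8.45, 9.47, 7.24 and 6.87. In each of these genes both males lay above both females, and none was called.

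No probe was called higher in females. Lrfn4, a synaptic adhesion gene, measured 6.95, 7.19, 10.07 and 10.11 (limma adjusted p = 0.362), and 1 of the males was not well above background. Arrdc2, an arrestin domain gene, measured 10.57, 11.33, 13.63 and 13.79, and its further probe 10.24, 11.05, 13.38 and 13.59. Slc25a25, a mitochondrial carrier of ATP and magnesium, measured 10.67, 10.89, 13.09 and 12.48. Socs2, a feedback inhibitor of growth hormone signalling, measured 8.44, 8.77, 10.78 and 10.34. Car3, carbonic anhydrase 3, measured 16.10, 16.19, 17.21 and 17.48, and Plin4, a lipid droplet coat protein, 13.06, 12.80, 14.03 and 14.21. Both females lay above both males in each, without passing the test. Of the 6 measured X-linked genes of inactivation and escape, 4 were higher in both females, against 18.8% of all named genes. Eif2s3x had 2 probes that disagreed, since 1 was higher in females and the other in males.

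**Figure D3:**
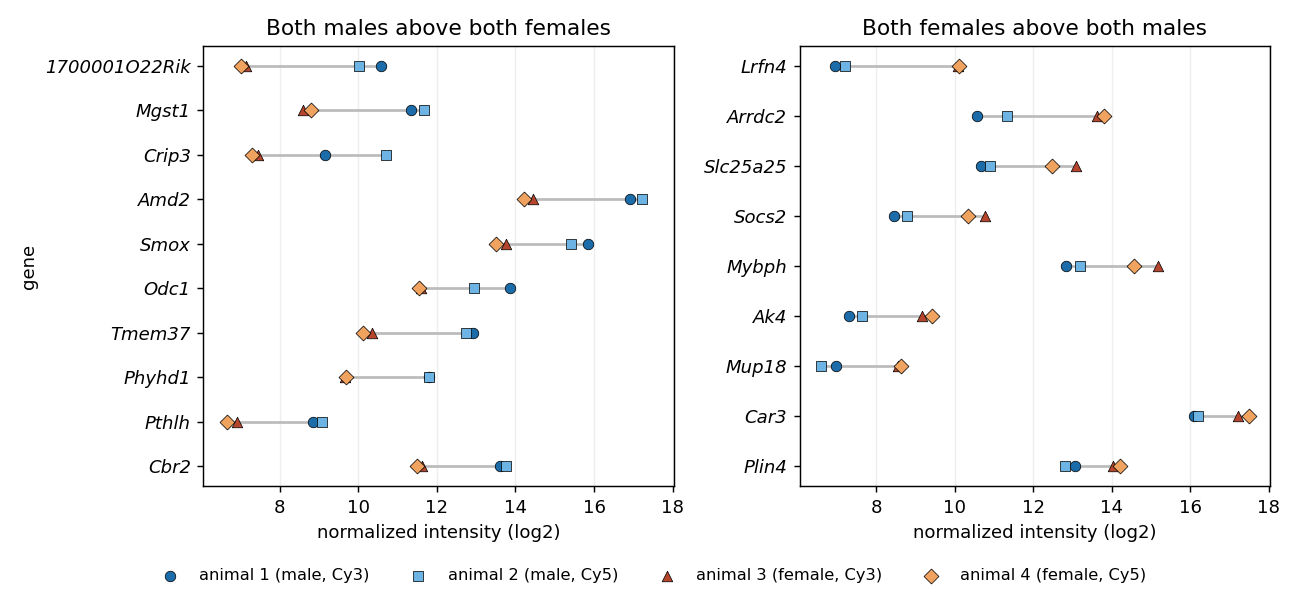
Normalized log2 intensity (x) of 10 genes in which both males were above both females (left) and of 9 genes in which both females were above both males (right), with 1 point per wild type animal. The points of a sex sit together in most genes, as in Phyhd1 at 11.79 and 11.79 against 9.65 and 9.67.

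A set of the wide probes, which overlaps the genes above and includes Lrfn4, Arrdc2 and Ak4, had animal 4 highest and animal 1 lowest. It held 49 of the 105 (46.7%), against 12.7% of all tested probes. It held 12 probes of 11 named genes, 18 probes of intergenic intervals and 19 other unnamed probes. All tested probes held 14485, 3373 and 3933 of these kinds. The 18 were all the intergenic probes with an SD over 1. Dcaf12l2, a WD repeat gene, measured 12.93, 14.00, 14.91 and 16.00 on its brightest probe, but its further probe measured 11.07, 9.91, 9.29 and 9.32, with animal 1 highest. Tssk5, a testis kinase, measured 7.76, 8.70, 9.36 and 10.83. In the mutants hybridised on the same arrays, 35 of the 49 probes (71.4%) had mutant 4 highest and mutant 1 lowest, against 9.55% of all tested probes. The females were above the males in 46 of the 49 probes. The choice of these probes had already placed a female highest and a male lowest. Only the order of the other male and the other female was free to vary. The count is therefore partly fixed by the choice and is no test of sex. Array and sex cannot be told apart here.

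Of 10 measured erythroid genes, 7 were higher in both animals labelled with Cy5 than in both labelled with Cy3, against 9.44% of all named genes. In 7 of the 10 animal 4 was highest, against 19.1% of all named genes, and the median SD was 0.651. Hba-a2, an alpha globin, measured 15.86, 16.53, 15.11 and 16.70, with the Cy5 animals 2 and 4 above the Cy3 animals 1 and 3. Alas2, the first enzyme of heme synthesis in red cell precursors, measured 8.69, 9.29, 8.10 and 9.43, and globin genes share sequence, so their probes are not independent. With the dye effect taken from the wild type animals alone, which removes any difference between the dye groups, the median SD of the list was 0.213. The main correction removes a dye effect that all arrays share. It is taken from all 8 channels, so the levels of the mutants, which carried the other dye on each array, enter these values. Whether blood content of the wild types, that of the mutants or a remaining dye effect moved these genes was not tested.

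Markers of other cells varied less. Schwann cell and myelin genes had a median deviation from the gene mean of 0.26 in animal 1 and −0.40 in animal 2. Animal 2 was lowest in 8 of 11, against 17.5% of all named genes. Animal 1 was highest in 8 of 11, against 3612 of 11446 named genes. Pmp22, a myelin protein, measured 10.09, 9.08, 10.05 and 9.87, and its further probe gave the same highest and lowest animal. Of 20 fibroblast and matrix genes, 15 were highest in animal 3, against 19.9% of all named genes, with a median deviation of 0.31. Col1a1, a chain of type I collagen, measured 10.50, 10.07, 11.95 and 11.03. Thbs4, a thrombospondin of muscle and tendon, measured 12.30, 12.05, 11.01 and 10.59, with the males above the females. Adipocyte genes (13 measured) had a median SD of 0.336, macrophage and neutrophil genes (10) 0.243 and endothelial and mural genes (18) 0.200. Of B cell, T cell and MHC class II genes 6 of 17 passed, with a median SD of 0.252, and of 10 epidermal genes 2 passed. Their part in the spread of the muscle genes was not tested.

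Lists of stress, regulation and fibre function had lower median SDs than the slow list (0.589). Atrophy and FoxO target genes (20) had a median SD of 0.389 and immediate early genes (17 of 25) 0.329, with 1 gene over 1 in each, Smox and Fos. Ddit4, a stress-induced inhibitor of mTORC1, measured 9.54, 10.19, 11.85 and 10.68, with animal 3 highest. Heat shock genes (14) had a median SD of 0.243, neuromuscular junction genes (14) 0.245, interferon genes (13) 0.207, clock genes (17) 0.202 and satellite cell genes (7) 0.186. Calcium handling genes (17) had 0.175, glycolysis genes (23) 0.173, phosphocreatine genes (9) 0.207 and shared filament genes (18) 0.151, and the fast list 0.212. None of the lists in this paragraph had more than 1 gene with an SD over 1.

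**Figure D4:**
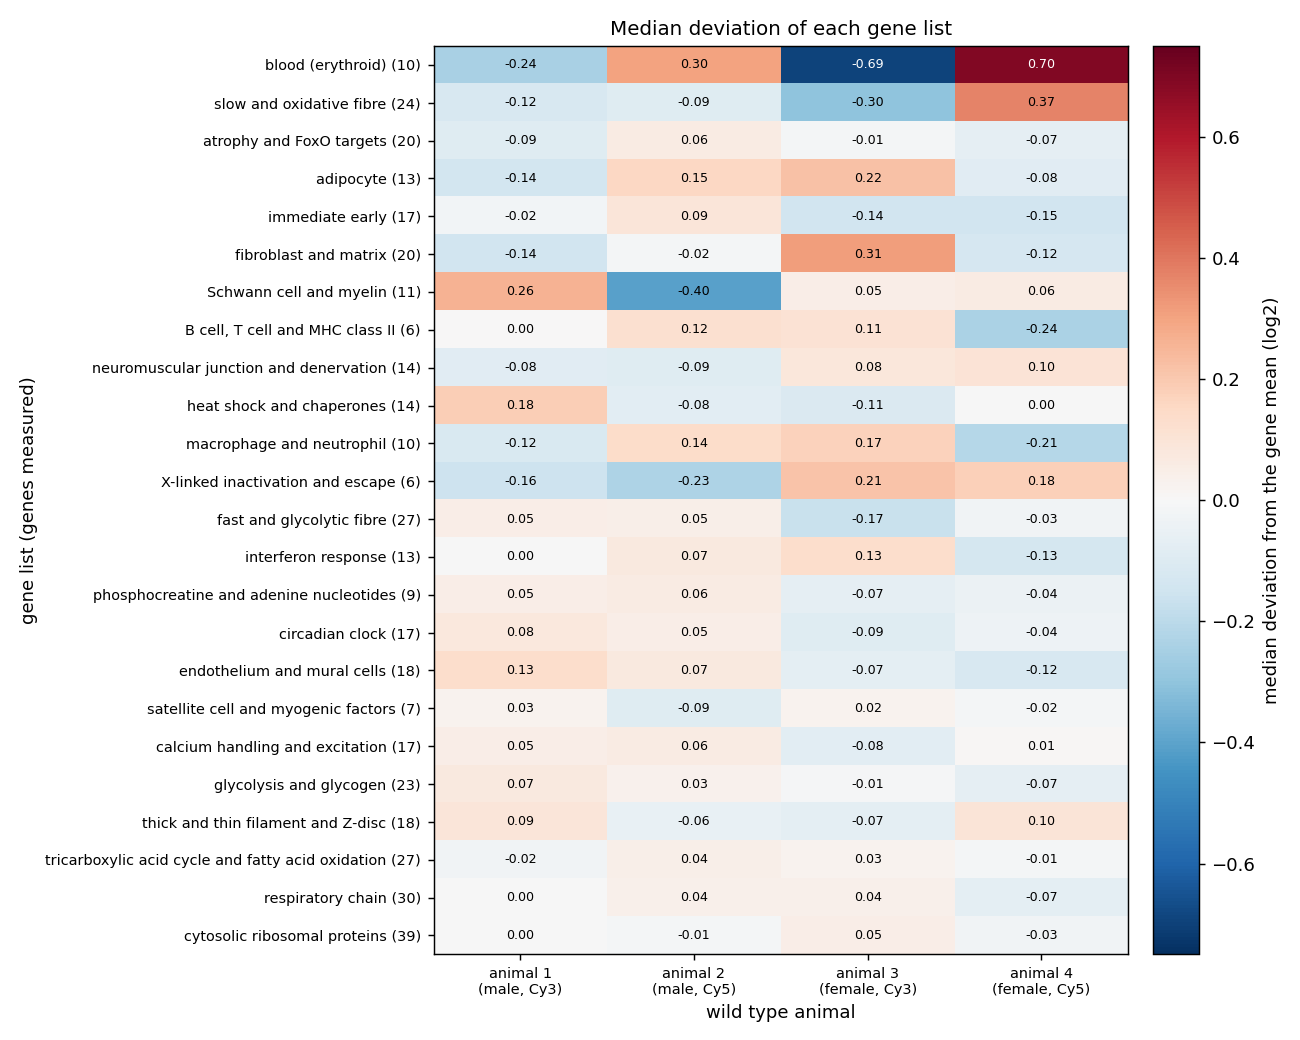
Each cell is the median over a gene list of the deviation of 1 wild type animal from the gene mean, in log2 units, with lists sorted by median SD and the number of genes measured in brackets. Erythroid genes (0.70 in animal 4, −0.69 in animal 3), Schwann cell genes (−0.40 in animal 2) and slow genes (0.37 in animal 4) deviate most, and ribosomal genes stay within 0.05.

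Of the 25 genes with the largest SD, the last had an SD of 1.187 and the next gene 1.187 as well. Of these 25 genes, 7 had further tested probes (8 probes). The further probe had the same highest animal in 5 of 8 (62.5%) and the same lowest in 7 of 8 (87.5%), against 39.2% and 41.4% over all genes with several probes. Median SDs were 1.59 for the first probes and 1.58 for the further ones.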

How the data were processed

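The 2-colour arrays were deposited as spot intensity on a linear scale, from Agilent Feature Extraction 10.7.3.1 per the submitters' processing notes. The deposited scanner files also hold other values, flags of 0 or 1 for spots well above background, saturated or outlying. The authors' deposited table holds log2 values centred on each probe's median over 8 samples, with a normalization that the sources used here do not state.

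From the median spot and background signals the following was computed: normexp background correction (offset 50), loess within arrays with control and outlier spots at weight 0, Aquantile between arrays (limma 3.58.1, R 4.3.3). The dye effect per probe was the mean Cy5 minus mean Cy3 value over 8 channels, split evenly between the dyes and removed. Scripts were tested on simulated data. Sex was tested by lmscFit with Benjamini-Hochberg adjustment over all tested probes. The probe with the highest mean stood for a gene. Named were the markers, the 25 brightest and 25 most spread genes, the 5 narrowest above the median intensity, 2 brightest and 2 widest of each list, and called sex genes; other names were chosen after values were seen. Probes were named by RefSeq accession (27656 of 55681 matched); the table's build differs from the headers', so no probe coordinates are given. Members and lists were chosen with earlier results of these data known. "At least" folds compare the bright group's mean with, per array, the higher of the lowest well-above-background signal and the dim probe's own.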

Additional observations from a re-analysis of the deposited data

Results flagged for a closer look

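Of 163 genes and lists looked at, 3 had 1 animal far from the other three by Dixon's ratio at its 95% limit; chance gives about 1 in 20. Aldoa, the muscle aldolase, had a ratio of 0.886, since animal 2 measured 18.22 against 18.45 to 18.48 in the others, but its spots were saturated in both Cy5 animals (2 and 4), so that these values are lower limits and the gap was not measured. Myl3, a slow myosin light chain, had a ratio of 0.911, since animal 4 measured 15.17 against 12.98 to 13.18. Gamt, an enzyme of creatine synthesis, had a ratio of 0.837, since animal 3 measured 11.92 against 11.29 to 11.39. The further probe of Gamt was also highest in animal 3, at 11.90.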

How the results depend on the processing

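Probes with an SD over 1 numbered 105. With the dye effect from wild type channels alone they numbered 63, with no dye correction 159, with the scanner's processed signals 554 and 519 with the authors' deposited table, and leaving out each animal in turn gave 71 to 249 (249 without animal 2, 235 without animal 3). Slow genes with an SD over 1 numbered 8 and, leaving out each animal, 3 to 8. An animal left out of an SD stayed in the dye effect. Of the 25 most spread genes, 12 were shared with the processed signals and 13 with the deposited table, and 16 to 21 when an animal was left out. Of the 25 brightest genes, 22 to 25 were shared. The sex difference gave 11 probes. With no replicate block (animals of an array as independent samples) it gave 22 probes, 3 of them higher in females, with the 4 wild type channels alone 1393 (539 higher in males, 854 in females), and with no dye term 53 (38 and 15). Median centring gave 4, the processed signals 0 (1231 at an unadjusted p under 0.05), no filter on dim probes 22 (17 higher in males, 5 in females) and 4 came from the deposited table. Leaving out each animal with its array, at the same correlation, gave 0 to 835 probes (76, 835, 19 and 0 without animals 1 to 4). Male and female animals share no replicate number, so the block is the array. The female minus male value turned to −0.29 for Atp2a2 and −0.046 for Tnni1 without animal 4, in ranges of −0.29 to 2.80 and −0.046 to 3.19 over the animals left out; neither had been called. For each of these changes, the cause was not tested beyond the samples or probes left out. Dim probes are compressed by the offset, and saturated spots (0 to 30 per animal, only in Cy5) limit the brightest.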
